A study of Rattus norvegicus with 4 samples.

Results

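The endocannabinoid system genes described here are 6 of the 30560 genes counted in nuclei of the rat nucleus accumbens, and were chosen by symbol: the cannabinoid receptor gene Cnr1, the diacylglycerol lipase genes Dagla and Daglb, the monoacylglycerol lipase gene Mgll, the fatty acid amide hydrolase gene Faah and the phospholipase gene Napepld. All 6 were listed and detected. Adult Sprague-Dawley rats aged 90 to 120 days received daily intraperitoneal injections on 7 days, either cocaine at 20 mg/kg in saline or saline alone, and were placed in an open field after injection. Tissue was collected 1 h after the last injection with a 2 mm punch around the core of the accumbens. Each of the 4 libraries (saline female, cocaine female, saline male, cocaine male) pooled tissue of 4 rats, so a treatment group holds 2 libraries, 1 of each sex, and the spread between single rats cannot be seen. The 10x 3′ libraries counted unique molecular identifiers (UMIs), each standing for 1 captured RNA molecule of a nucleus, and not protein or enzyme activity.

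Endocannabinoids are lipid messengers that neurons and other cells make on demand from membrane lipids. In the striatum 2-arachidonoylglycerol (2-AG), made by diacylglycerol lipases, travels backwards across synapses to the CB1 receptor encoded by Cnr1, lowers transmitter release and is cleared by monoacylglycerol lipase. Anandamide, the other main endocannabinoid, can be made by the enzyme encoded by Napepld and is broken down by fatty acid amide hydrolase. CB1 receptors of spiny neurons and of local interneurons are known for their part in striatal plasticity and reward.

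The promoters of the 2 hydrolase genes are shown because these genes had their highest and lowest levels in different glial classes, as described below. The stretches are the 250 bases before the start site in RefSeq's table for the build GRCr8, which differs from the rn7 build of the counts, and 4 of the 6 genes matched that table by symbol (Daglb, Mgll, Faah and Napepld). Mgll lies on the plus strand with this stretch at chr4:122749186-122749435, and Faah on the minus strand with it at chr5:134735397-134735646. Capitals mark the GC box letters GGGCGG, read on both strands (CCGCCC on the other).
Mgll: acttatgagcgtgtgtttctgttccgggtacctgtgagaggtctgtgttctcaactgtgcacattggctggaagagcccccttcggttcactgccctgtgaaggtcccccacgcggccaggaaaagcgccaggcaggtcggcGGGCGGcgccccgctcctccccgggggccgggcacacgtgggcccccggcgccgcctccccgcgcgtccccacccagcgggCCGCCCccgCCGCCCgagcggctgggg
Faah: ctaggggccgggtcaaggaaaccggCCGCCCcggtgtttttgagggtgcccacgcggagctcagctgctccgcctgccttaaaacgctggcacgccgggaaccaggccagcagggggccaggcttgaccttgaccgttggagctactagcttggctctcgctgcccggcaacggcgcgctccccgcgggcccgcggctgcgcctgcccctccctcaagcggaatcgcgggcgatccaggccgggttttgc
The GC box occurred 3 times before Mgll and 1 time before Faah, and 30.5% of the 33469 promoters of the same length held at least 1. Of the other matched genes, Napepld had 8 and Daglb 0. The letters ACAAAG, a core that SOX factors bind, occurred on neither strand in any of the 4 stretches, while 16.3% of all promoters held them. GC content was 72.4% before Mgll and 70.4% before Faah, against a median of 51.2% over all promoters.

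After removal of putative doublets 24843 nuclei remained in 22 clusters, and 11 named classes and 2 unnamed clusters had enough nuclei for tests. Names rest on marker lists and read "-like", and nuclei were also gated 1 by 1 on the same markers. In the named classes that have a gate, 97.13% of the nuclei the gate placed fell in the class of their cluster, but 1684 of 4949 D1-MSN-like nuclei were not placed. Other GABAergic-like nuclei (313) have no gate, and 75 of them were placed as D1-MSN-like and 81 as eccentric MSN-like. D1-MSN-like nuclei numbered 4949 and D2-MSN-like nuclei 3819, and all 8 general MSN markers were detected in both. The unnamed clusters were one led by Prlr and Klhl1 (1875 nuclei) and one led by Pnlip at the margin of the oligodendrocyte and precursor lists (148 nuclei). Total UMIs per library ran from 31484217 to 40737786, and any 2 libraries shared 10 to 18 barcodes. Levels below are UMIs scaled to 1000000 UMIs of the class (CPM), given for the females first and with saline before cocaine in each sex. They are compared over the 13 tested classes, which leaves out cholinergic-like (79) and vascular-like nuclei (95), and not between genes, since capture at the 3′ end differs from gene to gene. A level is a share of the UMIs of a class and not a count per nucleus. Median UMIs per nucleus in a library ran from 1148.5 to 1747 in microglia-like and from 1512.5 to 2000 in oligodendrocyte-like nuclei. They ran from 6661 to 9869 in D1-MSN-like and from 8510 to 14155 in glutamatergic-like nuclei.

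Cnr1, the gene of the CB1 receptor, was highest in Pvalb/Pthlh interneuron-like nuclei, local inhibitory cells, at 146, 193, 210 and 238 CPM in the 4 libraries. Pvalb itself was not among the listed genes, so this name rests on Pthlh, Kit, Kcnc2, Tacr3 and Cox6a2. Astrocyte-like nuclei followed at 74.8, 79.5, 92.8 and 103 CPM, and the Klhl1-led unnamed cluster at 69.5, 83.6, 79.8 and 88.1 CPM. The interneuron-like libraries all lay above those of every other class, while the ranges of the astrocyte-like nuclei and the Klhl1-led cluster overlapped. Against the summed UMIs of the other classes, with library as a block, the Pvalb/Pthlh interneuron-like class was 6.01-fold higher (log2 2.59, SE 0.10, edgeR adjusted p = 7.24e-15). The same test gave 2.41-fold for astrocyte-like nuclei and 2.37-fold for the Klhl1-led cluster (edgeR adjusted p = 2.01e-09 and 4.81e-08). Of genes tested over the 13 such contrasts, 50.3% were called, so a call was common in this comparison.

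Spiny projection neurons held less Cnr1. D1-MSN-like nuclei, the direct-pathway type of medium spiny neuron (MSN), stood at 40.4, 31.4, 29.5 and 39.6 CPM. D2-MSN-like nuclei, the indirect-pathway type, stood at 25, 13.2, 13.3 and 20.9 CPM, and all 4 lay below every D1-MSN-like library. Eccentric MSN-like nuclei were at 17.2 ± 1.75 CPM (SD, n = 4) and did not separate from D2-MSN-like or Sst interneuron-like nuclei.

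Cnr1 had 0 UMIs in all 4 libraries of microglia-like nuclei, among 1125975 UMIs, which allows up to 2.66 CPM over the class (3 UMIs, counting error only). The other GABAergic-like class, with Adamtsl1, Lgr6 and Drd3 among its leading genes, also had 0 among 996883 UMIs, allowing up to 3.01 CPM. Its summed level of 6 D1-MSN markers was 400 to 846 CPM, beside 761 to 907 CPM in D1-MSN-like nuclei. Oligodendrocyte-like nuclei had 1.69 ± 0.56 CPM (SD, n = 4). Every other tested neuronal class had Cnr1 UMIs in all 4 libraries.

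Counted as nuclei with at least 1 Cnr1 UMI after every nucleus was thinned to 1000 UMIs, 11.2% to 20.3% of Pvalb/Pthlh interneuron-like nuclei were positive, against 49.7% to 60.5% before thinning. Thinned shares were 7.53% to 8.76% in astrocyte-like, 2.28% to 4.4% in D1-MSN-like nuclei and 1.09% to 1.60% in the D2-MSN-like class. In microglia-like nuclei, of which 638 were deep enough and 139 were left out, the share was 0. For the classes named here the order of the shares followed that of the CPM. It did not for all: Sst interneuron-like nuclei had a mean share of 2.82% against 1.38% in D2-MSN-like nuclei. Their mean levels were 17.0 and 18.1 CPM. At the finer resolution of 1.0 a Vip-led cluster split from the Pvalb/Pthlh interneuron-like class, and what remained held 152, 201, 217 and 243 CPM of Cnr1. The Vip-led cluster had 9, 81, 0 and 34 Cnr1 UMIs, or 91.5, 190, 0 and 225 CPM, from 11, 50, 4 and 20 nuclei. The high level was thus not confined to it.

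**Figure D1:**
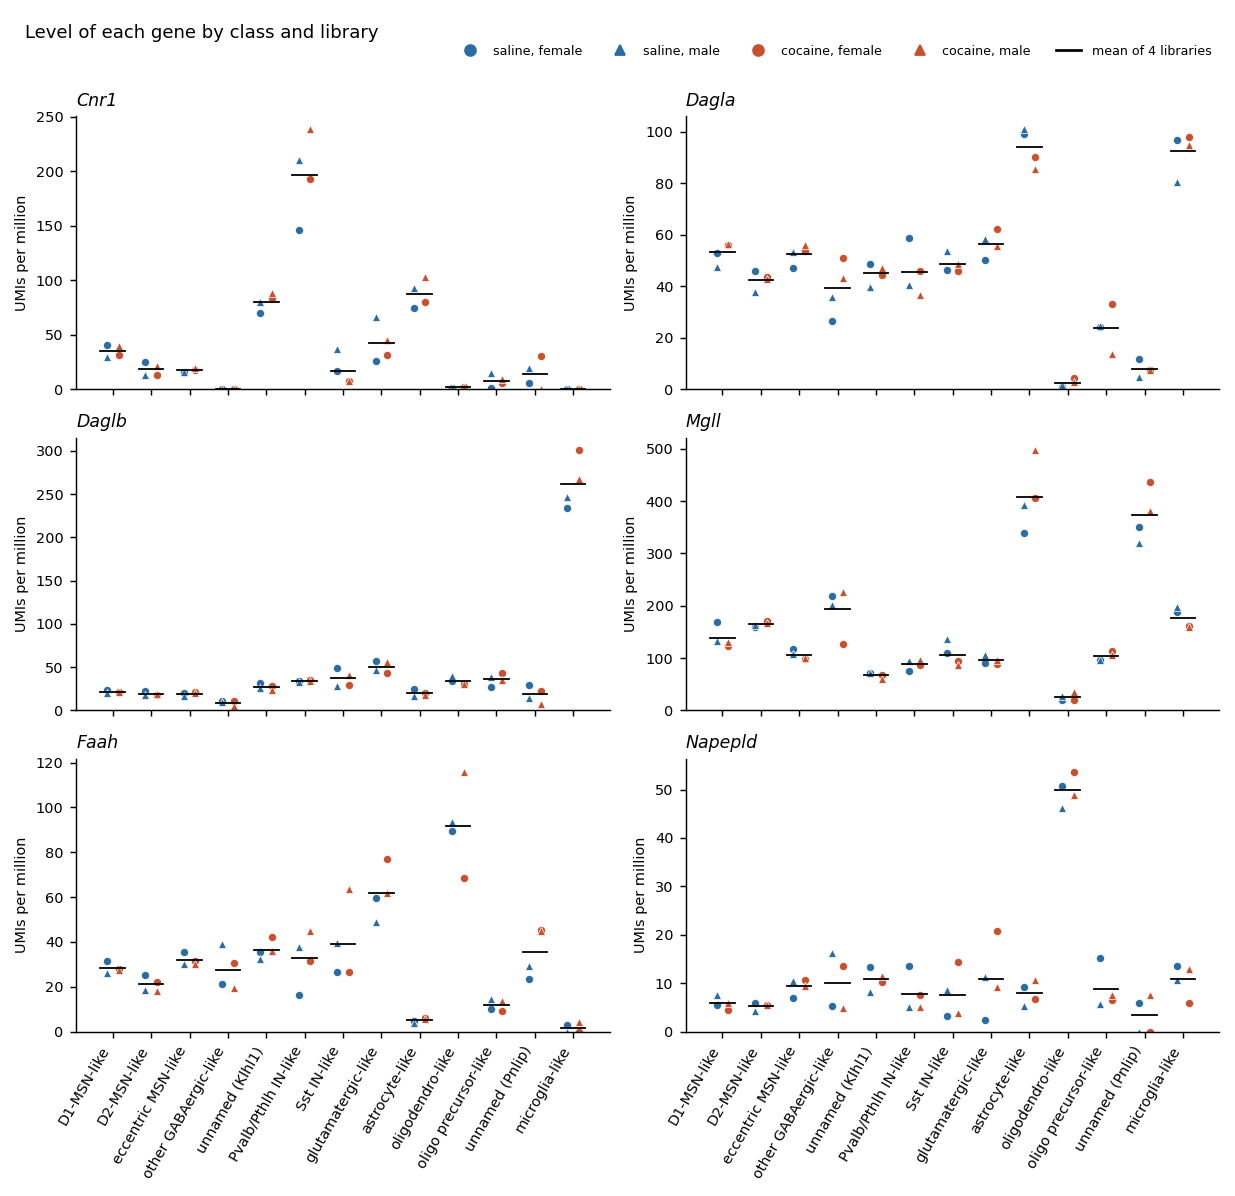
Level of the 6 genes in 13 classes of nuclei, in CPM (vertical axes, linear, from 0), with 1 point for each of 4 libraries and a line at their mean. Cnr1 peaks in Pvalb/Pthlh interneuron-like nuclei at 146 to 238 CPM, Daglb in microglia-like nuclei, Mgll in astrocyte-like nuclei and the Pnlip-led cluster, and Napepld in oligodendrocyte-like nuclei.

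The genes of 2-AG synthesis differed from each other in distribution. Dagla, the lipase that supplies most synaptic 2-AG in the brain, was at 99.2, 90.2, 101 and 85.5 CPM in astrocyte-like and at 96.9, 98.2, 80.5 and 94.8 CPM in microglia-like nuclei. These 2 classes overlapped and lay above all other tested classes. Neurons of every class held 39.2 to 56.5 CPM on average, and neighbours in that order overlapped throughout. Oligodendrocyte-like nuclei were lowest at 0.70, 4.26, 1.68 and 2.90 CPM, 17.2-fold below the mean of the other classes (log2 -4.10, edgeR adjusted p = 6.49e-21). Over 13 contrasts of a class with the mean of the others 48.2% of genes were called, and Dagla was called in 11 of 13, with 8 higher and 3 lower. Against the summed other classes it was called in 8 of 13, with 5 higher and 3 lower, where 50.3% of genes were called. D2-MSN-like nuclei, for example, were higher by log2 0.46 in the first comparison and by 0.03, not called, in the second.

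Daglb, the other diacylglycerol lipase, was highest in microglia-like nuclei at 234, 301, 247 and 267 CPM. The next class, glutamatergic-like nuclei, reached 57.2 CPM at most. The microglia-like level was 9.19-fold above the mean of the other classes (log2 3.2, edgeR adjusted p = 5.33e-33). Outside microglia-like and glutamatergic-like nuclei the class means ran from 8.86 to 36.9 CPM. Astrocyte-like nuclei, high in Dagla, had 19.7 ± 3.49 CPM (SD, n = 4) of Daglb.

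Mgll, whose enzyme ends 2-AG signalling, was highest in astrocyte-like nuclei at 339, 407, 392 and 498 CPM and in the Pnlip-led cluster at 351, 438, 320 and 382 CPM. The 2 overlapped, and both lay above every other class, the next being other GABAergic-like nuclei at 193 ± 45.8 CPM (SD, n = 4). The astrocyte-like class was 3.59-fold above the mean of the others (log2 1.84, edgeR adjusted p = 1.31e-31). Oligodendrocyte-like nuclei were again lowest, at 20.2, 19.6, 27.8 and 35.2 CPM, 5.34-fold below the mean of the others (edgeR adjusted p = 2.74e-28). Among neurons Mgll was higher in D2-MSN-like (165 ± 5.19 CPM, SD, n = 4) than in Pvalb/Pthlh interneuron-like nuclei (88.3 ± 9.15 CPM) and the Klhl1-led cluster (67.8 ± 5.51 CPM), whose libraries did not overlap with it. Those last 2 classes were among the 3 highest in Cnr1, but the remaining class of these 3, astrocyte-like nuclei, was the highest in Mgll.

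The anandamide genes had another order. Napepld, the synthetic enzyme, was highest in oligodendrocyte-like nuclei at 50.7, 53.7, 46.2 and 48.9 CPM, and no library of another tested class exceeded 20.7 CPM. This was 6.6-fold above the mean of the other classes (log2 2.72, edgeR adjusted p = 2.38e-27). In spiny neurons it was low, with means of 5.83 ± 1.29 CPM for the D1-MSN-like class and 5.27 ± 0.72 CPM for the D2-MSN-like class (SD, n = 4).

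Faah, which degrades anandamide, was also highest in oligodendrocyte-like nuclei, at 89.7, 68.4, 93.3 and 116 CPM, 4.76-fold above the mean of the others (log2 2.25, edgeR adjusted p = 2.48e-27). Glutamatergic-like nuclei followed at 59.5, 77.0, 48.9 and 62.0 CPM and overlapped with them, but rest on 30, 253, 49 and 118 nuclei. Astrocyte-like nuclei had 5.02 ± 1.04 CPM (SD, n = 4), and microglia-like nuclei had 2 UMIs in all 4 libraries together, or 1.78 CPM (95% exact Poisson interval 0.22 to 6.42, counting error only). The hydrolase genes were thus reversed between 2 glial classes: Mgll was high and Faah low in astrocyte-like nuclei, and the opposite held in oligodendrocyte-like nuclei. The opposite did not extend to related nuclei. Oligodendrocyte precursor-like nuclei had means of 103 CPM of Mgll and 11.8 CPM of Faah, and the Pnlip-led cluster had 373 and 35.7 CPM.

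Over the 13 classes, the mean log2(CPM + 1) of Mgll had a Pearson r of -0.56 with Faah and of -0.78 with Napepld. Its r was 0.43 with Dagla and 0.01 with Cnr1. These are descriptions over 13 points that share libraries. The 3 genes most like each member by the same measure were Sfxn4, Cluh and Sra1 for Cnr1 (r = 0.96, 0.93 and 0.92), Ahdc1, Sema4a and Camk1d for Dagla (0.97, 0.94 and 0.92) and Slc36a4, Tmem64 and Scpep1 for Daglb (0.93, 0.93 and 0.92). For Mgll they were Zfp516, AC133270.1 and Abr (0.92, 0.80 and 0.80), for Faah Mfsd6, NEWGENE_1310680 and Pak5 (0.96, 0.94 and 0.94), and for Napepld Hars1, Cacybp and Desi1 (0.91, 0.91 and 0.89). The comparison covered 9747 genes.

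The D1-MSN-like and D2-MSN-like classes were compared directly, with library as a block. Of the 6 genes 4 were called, 3 higher in D1-MSN-like nuclei and 1 lower, where 9.11% of all genes tested were called. Cnr1 was 1.90-fold higher in D1-MSN-like nuclei (log2 0.93, SE 0.14, edgeR adjusted p = 2.08e-06) and was higher in 4 of 4 libraries. Faah was higher by log2 0.40 (SE 0.11, edgeR adjusted p = 0.014) and Dagla by log2 0.30 (SE 0.08, edgeR adjusted p = 0.00994). Mgll was lower in D1-MSN-like nuclei, with a log2 difference of -0.28 (SE 0.09, edgeR adjusted p = 0.0221). Daglb and Napepld differed by log2 0.14 (95% interval -0.04 to 0.32) and 0.12 (95% interval -0.25 to 0.49) and were not called. Whether the small differences were called depended on single libraries and on the method. The number called was 1 without the cocaine male library, 2 on leaving out either the saline male or the cocaine female library, and 2 with DESeq2. The direction stayed the same where a call was lost. The log2 difference there ran from 0.28 to 0.29 for Dagla, from 0.35 to 0.41 for Faah and from -0.27 to -0.20 for Mgll.

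Clusters within a class also differed. D1-MSN-like nuclei consisted of a Reln-led cluster (cluster 2) and a cluster with Nts and Drd1 among its leading genes (cluster 5). Cnr1 averaged 41.5 ± 7.61 CPM in cluster 2 and 22.7 ± 4.89 CPM in cluster 5 (SD, n = 4), a log2 difference of 0.82 (SE 0.13, edgeR adjusted p = 4.27e-04, where 18.7% of genes were called). Mgll went the other way, with 119 ± 22.6 CPM in cluster 2 and 173 ± 30.9 CPM in cluster 5 (log2 -0.51, SE 0.05, edgeR adjusted p = 3.85e-06). The other 4 genes were not called between these clusters.

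D2-MSN-like nuclei held a main cluster (cluster 1) and a small one (cluster 12, 71 to 107 nuclei a library). Cnr1 was 2.38-fold higher in the small cluster, at 38.9 ± 11.1 CPM against 15.9 ± 5.44 CPM (SD, n = 4, edgeR adjusted p = 4.41e-07, where 23.7% of genes were called). Mgll was higher there too, at 205 ± 11.9 CPM against 161 ± 6.11 CPM (edgeR adjusted p = 0.00389). The differences between the 2 MSN classes did not hold for every pair of their clusters. Cnr1 in D1-MSN-like cluster 5 (15.8 to 26.7 CPM) overlapped with D2-MSN-like cluster 1 (10.8 to 22.6 CPM). It also overlapped between D2-MSN-like cluster 12 (25.4 to 48.7 CPM) and D1-MSN-like cluster 2 (32.9 to 49.1 CPM). Mean Mgll was 173 CPM in D1-MSN-like cluster 5, above D2-MSN-like cluster 1. These pairs were not tested.

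Oligodendrocyte-like nuclei formed 3 clusters, and Faah and Napepld did not peak in the same one. Faah was at 238, 217, 165 and 242 CPM in cluster 13, the smallest with 47 to 121 nuclei a library, against 78.8 ± 20.9 CPM in cluster 0 and 78.7 ± 13.2 CPM in cluster 7 (SD, n = 4). Cluster 13 exceeded cluster 0 by log2 1.49 (SE 0.14, edgeR adjusted p = 7.03e-14) and cluster 7 by log2 1.5 (SE 0.15, edgeR adjusted p = 1.97e-10), where 21.3% and 26.0% of genes were called. Napepld was highest in cluster 7 at 71.3 ± 4.76 CPM and lowest in cluster 13 at 18.9 ± 11.2 CPM (SD, n = 4, log2 -1.84, edgeR adjusted p = 2.87e-06). Mgll was also highest in cluster 7, at 50.7 ± 11.2 CPM, against 15.8 ± 5.32 CPM in cluster 0 (log2 difference of cluster 0 from cluster 7 -1.70, edgeR adjusted p = 3.31e-10, where 19.8% of genes were called). No library of these clusters exceeded 66.6 CPM of Mgll.

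At resolution 1.0 astrocyte-like nuclei split into a cluster led by genes such as Slc1a2 and Grin2c (cluster 6) and a smaller one led by Agt and Slc6a11 (cluster 12). Cnr1 was 3.38-fold, Mgll 3.22-fold and Dagla 1.94-fold higher in cluster 6 (edgeR adjusted p = 1.85e-08, 7.33e-14 and 7.29e-05, where 15.4% of genes were called). Mgll stood at 507 ± 32.1 CPM in cluster 6 and 162 ± 33.7 CPM in cluster 12, and Cnr1 at 109 ± 10.7 and 32.6 ± 8.28 CPM (SD, n = 4). The receptor gene and 2 genes of 2-AG turnover were thus high in the same astrocyte-like cluster. The members and the wider list were left out of the variable genes used to draw the clusters. The clusters to compare were chosen after seeing the data, so these differences describe the clusters and are no independent evidence for them.

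**Figure D2:**
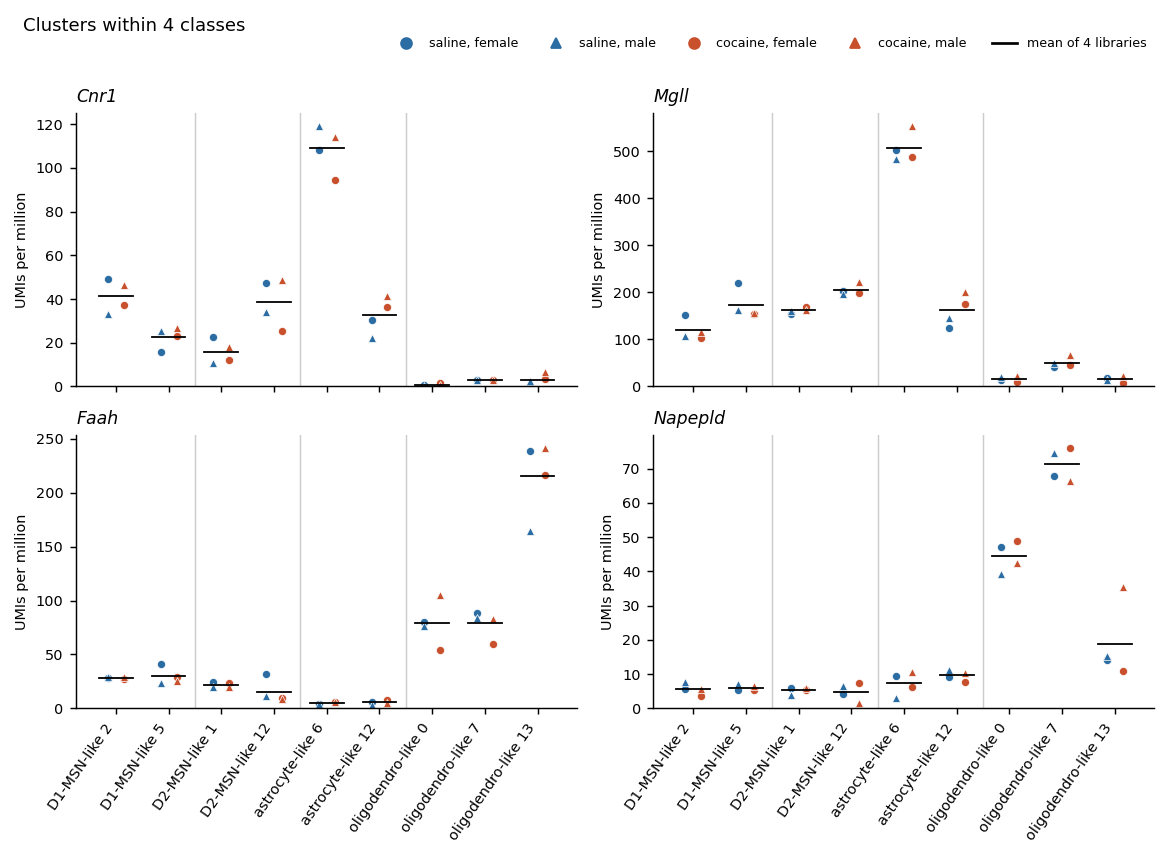
Level of Cnr1, Mgll, Faah and Napepld in CPM (vertical axes, from 0) in single clusters of 4 classes, with 1 point a library and a line at the mean of 4. Faah is highest in oligodendrocyte-like cluster 13 and Napepld in cluster 7, and Cnr1 and Mgll are 3.38-fold and 3.22-fold higher in astrocyte-like cluster 6 than in cluster 12.

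Cocaine was compared with saline in each class, with sex as a covariate. None of the 6 genes was called in any of the 13 classes by edgeR's quasi-likelihood test: 56 combinations of gene and class passed the filter on low counts, and 0 were called. Over all genes and classes 0.422% of tests were called, so a count of 0 among 56 is near the background. At an unadjusted p under 0.05 there were 2, and DESeq2 called 0, with 0 at an unadjusted p under 0.05. The median log2 fold change of the 56 was 0.003, beside 0.002 over all genes, with 29 above and 27 below 0. In 20 of the 56 (35.7%) the cocaine and saline libraries did not overlap, against 34.7% over all genes. The 22 combinations that did not pass the filter include Cnr1 in microglia-like and other GABAergic-like nuclei, where it had 0 UMIs.

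How large a change these libraries would miss differs by gene and class. The 95% interval stayed within 2-fold (log2 -1 to 1) in 49 of 56 combinations and within log2 -0.5 to 0.5 in 19. In D1-MSN-like nuclei it was -0.31 to 0.32 for Cnr1, -0.05 to 0.33 for Dagla and -0.31 to 0.16 for Faah. In Pvalb/Pthlh interneuron-like nuclei, the class highest in Cnr1, the receptor gene had a log2 fold change of 0.24 (95% interval -0.05 to 0.54, edgeR adjusted p = 0.61). Its saline libraries were at 146 and 210 CPM and its cocaine libraries at 193 and 238 CPM. The makeup of this class differed too: the Vip-led cluster held 11, 50, 4 and 20 nuclei in library order, more with cocaine in each sex. The part of this shift in the result was not tested. In all nuclei together no interval of the 6 genes went beyond log2 -0.29 to 0.24, and 0.0484% of genes were called.

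**Figure D3:**
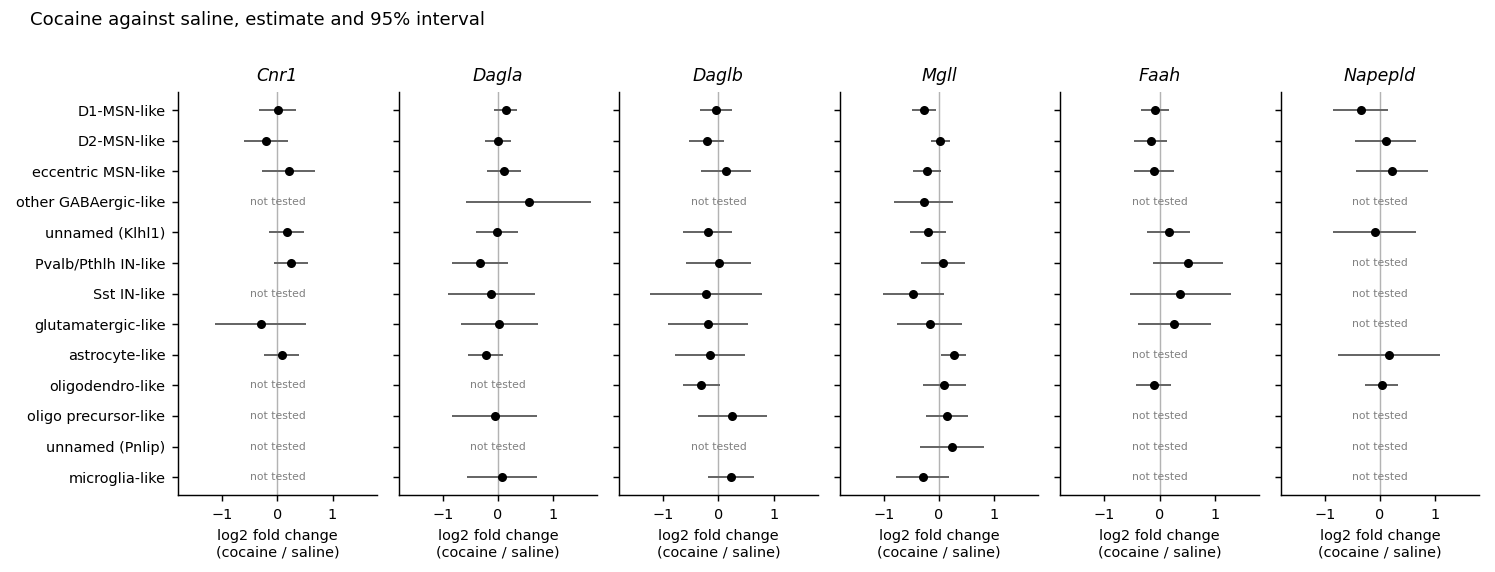
Log2 fold change of cocaine over saline (horizontal axes, point) with its 95% interval (line) for each gene and class from edgeR, fitted with sex as a covariate. 2 intervals leave 0 out, those of Mgll in D1-MSN-like and in astrocyte-like nuclei, and neither passed the adjusted threshold.

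The 2 smallest p-values both belonged to Mgll, in opposite directions. In D1-MSN-like nuclei Mgll stood at 170, 124, 132 and 130 CPM, with a log2 fold change of -0.27 (SE 0.09, unadjusted p = 0.0141, edgeR adjusted p = 0.43, where 0.233% of genes were called). The saline female library stood apart from the other 3, and within males the log2 ratio was -0.03 against -0.46 within females. The 2 clusters of the class gave log2 fold changes of -0.27 and -0.29 when fitted apart, and in each the saline female library was highest. Without the saline male library the change was -0.45 and was called (edgeR adjusted p = 0.00322). That fit sets the single saline female library against 2 cocaine libraries with no sex term, so its spread comes from the cocaine libraries and the call rests on the library that stood apart. D2-MSN-like nuclei, where 0.573% of genes were called, gave 159, 171, 164 and 167 CPM of Mgll and a log2 fold change of 0.03 for cocaine. The difference of the 2 effects was -0.29 (SE 0.09, unadjusted p = 0.00266, edgeR adjusted p = 0.33, where 0.106% of genes were called). None of the 6 genes was called in that test, 1 had an unadjusted p under 0.05, and without the saline male library Mgll was called (log2 difference -0.49, edgeR adjusted p = 2.43e-05). There too the saline side is the saline female library alone, assumed to vary like the cocaine libraries.

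In astrocyte-like nuclei Mgll stood at 339, 407, 392 and 498 CPM, higher with cocaine in both sexes (log2 ratios 0.26 in females and 0.34 in males). The fitted log2 fold change was 0.27 (SE 0.11, unadjusted p = 0.0141, edgeR adjusted p = 0.34, where 1.37% of genes were called). The makeup of this class moved with it: the share of the Agt-led cluster 12, low in Mgll, was 44.0%, 27.7%, 26.0% and 16.3% in library order. Fitted apart, Mgll changed by log2 0.05 (95% interval -0.18 to 0.28) in cluster 6 and by 0.45 (95% interval -0.02 to 0.93) in cluster 12. The summed level of 8 general MSN markers in astrocyte-like nuclei, all 8 detected, was also higher in the cocaine libraries, at 1146, 1492, 1023 and 1413 CPM. Its part in the result was not tested.

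Cnr1 in the D1-MSN-like and D2-MSN-like classes went in opposite directions in the 2 sexes. Eccentric MSN-like nuclei did not share this, with log2 ratios of cocaine to saline of 0.15 in females and 0.30 in males. In D1-MSN-like nuclei the log2 ratio of cocaine to saline was -0.36 in females and 0.42 in males, and in D2-MSN-like nuclei -0.92 and 0.65. The fitted effects over both sexes were 0.01 (95% interval -0.31 to 0.32) and -0.21 (95% interval -0.59 to 0.17). In the D1-MSN-like class the share of nuclei in the Reln-led cluster, the one higher in Cnr1, was 72.7%, 60.3%, 55.5% and 67.1% in library order, the same order from high to low as Cnr1. Within that cluster Cnr1 was at 49.1, 37.3, 32.9 and 46.4 CPM, and within cluster 5 at 15.8, 23.1, 25.4 and 26.7 CPM. In the D2-MSN-like class the share of cluster 12 was 9.45%, 7.61%, 11% and 9.68%. With 1 library for each sex and treatment, sex and the single pool cannot be told apart, and this difference between the sexes was not tested.

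**Figure D4:**
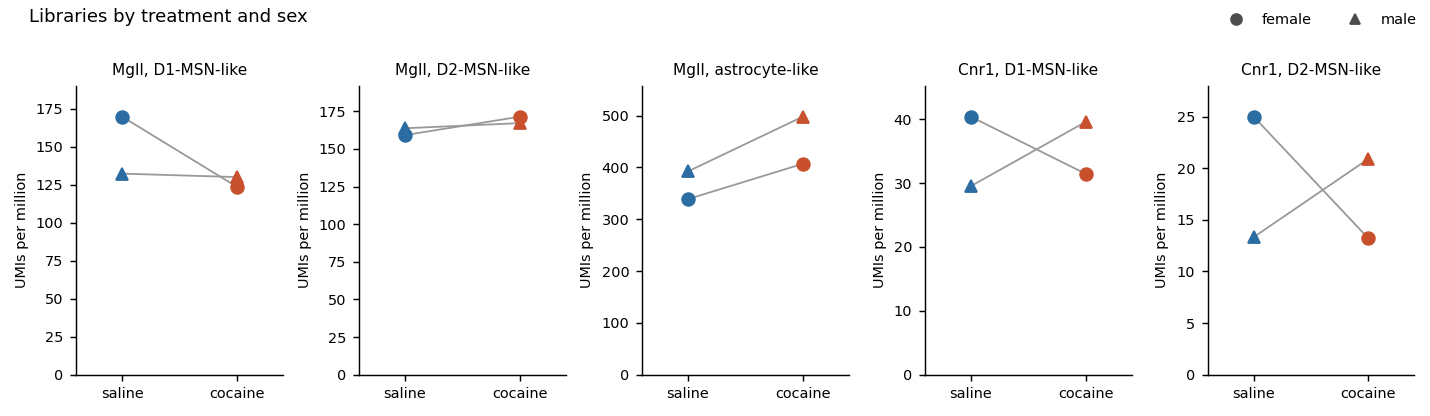
Levels of Mgll and Cnr1 in CPM (vertical axes, from 0) in single libraries, with a line joining the saline and cocaine library of each sex (circles female, triangles male). Mgll in D1-MSN-like nuclei is 170 CPM in the saline female library and 124 to 132 CPM in the other 3, and the lines of Cnr1 cross in both MSN classes.

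The surrounding pathway was read from a list of 28 further genes, of which 27 were listed (all but Fabp5). Receptors and partners were spread over classes. Cnr2, the CB2 receptor gene, was at 103 ± 17.5 CPM in microglia-like nuclei (SD, n = 4) and at most 0.51 CPM on average elsewhere. Ppara, a nuclear receptor for acylethanolamides, was highest in astrocyte-like nuclei at 130 ± 18.1 CPM, and Trpv1, the capsaicin receptor, was there at 7.43 ± 2.49 CPM. Sgip1, whose protein binds CB1 and slows its internalization, was highest in Sst interneuron-like nuclei at 805 ± 69.4 CPM. Gpr18, Gpr55 and Gpr119 had 23, 73 and 30 UMIs in all.

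Of the route from Gq-coupled receptors to diacylglycerol, Grm5, the group I glutamate receptor that drives 2-AG synthesis in spiny neurons, was highest in D2-MSN-like (4257 ± 49.8 CPM) and D1-MSN-like nuclei (4124 ± 28.1 CPM, SD, n = 4). Plcb1, a phospholipase C, was highest in eccentric MSN-like nuclei at 3887 ± 164 CPM. Its relative Plcb4 was lowest in D2-MSN-like nuclei at 15.5 ± 4.35 CPM. Among the other 2-AG hydrolases Abhd12 was highest in microglia-like nuclei at 985 ± 217 CPM, beside the peak of Daglb, and Abhd6 in eccentric MSN-like nuclei at 212 ± 22 CPM. Of the other anandamide genes, Inpp5d was at 2378 ± 205 CPM in microglia-like nuclei and Naaa, the acid amidase, at 48.8 ± 25.5 CPM there. In the direct comparison of D1-MSN-like with D2-MSN-like nuclei 0 of 20 list genes tested were called by edgeR, with 1 at an unadjusted p under 0.05, where 9.11% of all genes were called.

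**Figure D5:**
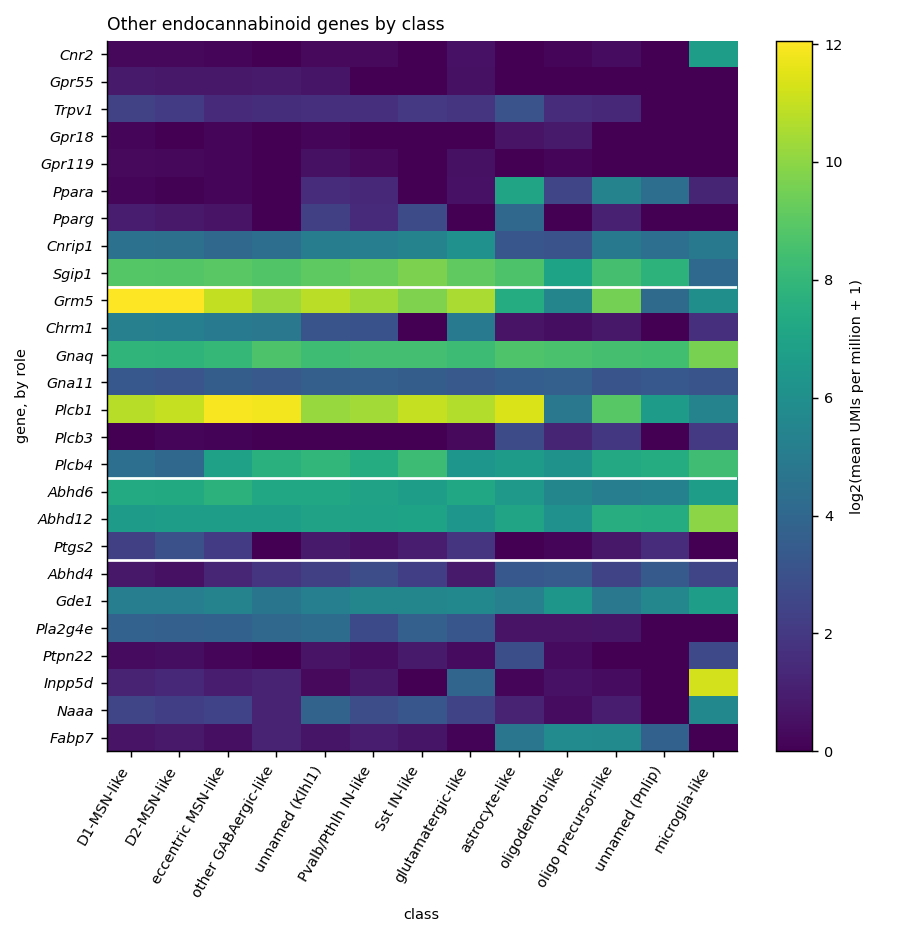
Mean level over 4 libraries, as log2(CPM + 1) (colour), of 26 of the 27 further endocannabinoid genes (rows, white lines between roles: receptors and partners, the Gq and phospholipase C route, other 2-AG enzymes, other anandamide genes) in 13 classes (columns). Cnr2, Inpp5d, Naaa and Abhd12 are highest in microglia-like nuclei and Ppara in astrocyte-like nuclei.

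With cocaine 1 of 164 combinations of list gene and class was called, where 0.422% of all tests were called, and 21 of the 164 had an unadjusted p under 0.05, beside 8995 of 116479 over all genes. The median log2 fold change of the 164 was -0.03, with 68 above and 96 below 0. The called gene was Plcb1 in astrocyte-like nuclei, which fell by 0.42 on the log2 scale (SE 0.09, edgeR adjusted p = 0.00187), at 3271, 2483, 2660 and 2075 CPM. Plcb1 was higher in cluster 12 (4278 to 5157 CPM) than in cluster 6 (1663 to 1840 CPM), and the share of cluster 12 was lower in the cocaine library of each sex, as given above. Fitted apart, the log2 fold changes were -0.12 in cluster 6 and -0.22 in cluster 12 (edgeR adjusted p = 0.94 and 0.97). The call was also lost with DESeq2, without the sex covariate, without doublet removal, with the marker gate and without any one of 3 libraries (both female and the cocaine male), with log2 fold changes from -0.28 to -0.56. In D2-MSN-like nuclei Plcb4 had a fitted log2 ratio of -0.59 (edgeR adjusted p = 0.096) and in all nuclei of -0.54 (edgeR adjusted p = 0.056), and was not called in either.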

How the data were processed

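The authors deposited a matrix of raw UMI counts for each of 4 libraries, made with Cell Ranger 6.1.2 per the file headers on rn7 per the submitters' processing notes; the annotation is not given in the sources used here. Nuclei were kept if they had 200 or more genes and no more than 5% of UMIs from mitochondrial genes, and 4.97% to 5.81% per library were removed as doublets by Scrublet score (0.8% per 1000 nuclei). Clusters came from scanpy 1.11.5 (2000 variable genes, 30 components, Leiden resolution 0.5). The members and the wider list were left out of the variable genes, as were immediate-early, sex-linked and mitochondrial genes. Names came from marker lists, of which 84 of 88 genes were listed, and 221 nuclei were in no class. Counts were summed per library and class, where each library gave a class 25 or more nuclei (cholinergic-like and vascular-like nuclei fell short). edgeR 4.0.16 (quasi-likelihood, TMM, filterByExpr) tested cocaine against saline with sex as covariate, and classes or clusters with library as block, adjusted by Benjamini-Hochberg over all genes of a comparison at 0.05. Intervals are 95%. With 2 libraries a group the p-values lean on spread shared across genes, and in astrocyte-like nuclei edgeR's prior degrees of freedom were infinite.

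CPM levels are class totals without TMM. A contrast with the unweighted mean of the other classes has no finite value for Cnr1, which had 0 UMIs in 2 classes, so the summed other classes were used for it, an alternative chosen after seeing the data, as were fits of single clusters. Sex ratios have 0.5 added to each count and no test. Thinning drew 1000 UMIs per nucleus. Fits were tested on simulated data. The members, lists and tests were chosen with earlier results of these data known. The text names the 6 genes in every class, called genes of the wider list and the 3 most similar genes (at least 500 UMIs, a range of at least 1 on the log2 scale); other list genes named for their levels, and Plcb4, were chosen after their values were seen. The levels of 1 gene of the wider list are not reported here; it is in the counts over that list.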

Additional observations from a re-analysis of the deposited data

Results flagged for a closer look

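Cnr1 in D1-MSN-like nuclei had a log2 ratio of cocaine to saline of -0.36 in females and 0.42 in males, and in D2-MSN-like nuclei of -0.92 in females and 0.65 in males. Faah in oligodendrocyte-like nuclei had a log2 ratio of -0.39 in females and 0.31 in males. These were picked out because the sexes moved in opposite directions, each by more than the 95% counting error of its UMIs. Each sex has 1 library per treatment, so the difference between the sexes was not tested.

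The levels of Faah in oligodendrocyte-like nuclei were 89.7 CPM (saline) and 68.4 CPM (cocaine) in females, and 93.3 CPM (saline) and 116 CPM (cocaine) in males. The share of cluster 13, the cluster highest in Faah, was 2.37% with saline and 3.93% with cocaine in females, and 9.25% with saline and 7.36% with cocaine in males, so it moved against the level in each sex.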

How the results depend on the processing

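The 6 genes gave 0 calls for cocaine against saline under the other settings, and 0 to 1 on leaving out 1 library; the 1 was Mgll in D1-MSN-like nuclei without the saline male library. The difference of effect between the MSN classes likewise gave 0 to 1. The wider list gave 1 call and gave 2 with RLE scaling, without the filter, with the marker gate and at resolution 1.0, 0 with DESeq2 and without the sex covariate, and 0 to 2 on leaving out 1 library. Over all genes and classes 492 calls became 995 without the filter, 36 with DESeq2, 87 without the sex covariate and 184 to 782 on leaving out 1 library (184 without the cocaine female, 782 without the saline male library), and the cause was not tested. Between the D1-MSN-like and D2-MSN-like classes 4 calls became 2 with DESeq2 and 1 to 4 on leaving out 1 library. Against the mean of the other classes, Mgll in oligodendrocyte precursor-like nuclei changed from -0.26 to 0.33 with the marker gate, and Napepld in glutamatergic-like nuclei, 0.83 with all libraries, ran from -0.0017 without the cocaine female to 1.08 without the saline female library. Both changes were on the log2 scale, and the cause was not tested. The gate has no unnamed clusters and no other GABAergic-like class, so its mean of the other classes is taken over fewer classes. It also placed 79 nuclei of the Pnlip-led cluster as oligodendrocyte precursor-like. Libraries can be paired only by sex, which the sex covariate fits. Fits of cocaine against saline that leave out 1 library have no sex term and 1 library in an arm, which is assumed to vary like the other arm. The effect of cocaine could be tested in the fewest classes for Napepld, Cnr1 and Faah. They passed the filter on low counts in 6, 7 and 8 of 13 classes, while Daglb passed in 11 and Mgll in 13.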
